A study of Mus musculus with 10 samples.

Results

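Snai1, Snai2, Twist1, Twist2, Zeb1, Zeb2 and Prrx1, transcription factors of mesenchymal cells, and Grhl2, Ovol1 and Klf5, transcription factors of epithelial cells, were followed over the first week of somatic cell reprogramming with and without FoxO6. They were picked by gene symbol and are 10 of the 48476 genes in the expression table of the series and of the 50600 genes measured in each library. The cells were mouse embryonic fibroblasts (MEFs) from E13.5 embryos of the cross CBA/CaJ X C57BL/6J, which carried an Oct4-GFP reporter according to the methods of the study. All cells received retroviruses for Oct4, Klf4 and Sox2 (OKS) made in PlatE packaging cells and were then cultured in iCD1 medium. One arm also received FoxO6 (OKS + FoxO6), and the control arm received the red fluorescent protein DsRed (OKS + DsRed). RNA was sequenced at days 0, 1, 3, 5 and 7 from a single library of each arm on each day, so there were 10 libraries and no replicates. The 5 libraries of an arm may come from 1 infected culture.

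In somatic cell reprogramming, fibroblasts lose mesenchymal traits and take on epithelial ones, a change called the mesenchymal to epithelial transition (MET). The Snail, Twist and Zeb factors are known to repress Cdh1, the gene of the epithelial adhesion protein E-cadherin, and to drive the opposite change, and Prrx1 is a homeobox factor of limb and connective tissue mesenchyme. Grhl2 and Ovol1 are known to activate epithelial genes or to repress mesenchymal regulators, and Klf5 is a Krüppel-like factor of epithelia and of early embryonic cells.

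The added gene separated the arms as the labels say. Foxo6 had a TPM, a length-scaled share of the transcripts in a library, of 0.61 to 2.29 in the control from no more than 4 reads, and of 762 to 1356 in OKS + FoxO6. Library totals ran from 1208379 to 2225750 expected counts, so a factor with a TPM near 2 rests on a handful of reads. Fibroblast markers were present in every library, with all 10 listed markers averaging a TPM over 1 and summed levels of 2373 to 8835 TPM in OKS + DsRed and 2622 to 7535 TPM in OKS + FoxO6. Of the 10 macrophage markers, Cx3cr1 and C1qc were at 0 in all libraries, and the sums ran from 14.1 to 57.2 TPM and from 18.0 to 30.8 TPM in the same order. The 9 endothelial markers summed to 39.0 to 63.7 and 51.7 to 143.6 TPM, the 10 keratinocyte markers to 26.2 to 80.05 and 7.75 to 58.9 TPM with Krt15 at 0, and the 11 markers of neurons and glia to 245 to 584 and 105 to 305 TPM. Few genes carried these sums. In OKS + DsRed, Cd68 held 52.0 of 55.1 macrophage TPM at day 1 and Sfn 61.0 of 80.05 keratinocyte TPM at day 7. Stmn2 held 423 of the 584 TPM of neurons and glia at day 1. Tek and Kdr held 104 and 38.4 of the 143.6 endothelial TPM in OKS + FoxO6 at day 5. Such sums do not show that these cell types were present. The 9 skeletal muscle markers, with Myf5, Myog and Tnnt3 at 0 throughout, reached 48.4 TPM in OKS + DsRed and 246 TPM in OKS + FoxO6, the latter at day 7 and almost wholly from Acta1. The 10 pluripotent cell markers ranged from 4.75 to 349 TPM and from 1.10 to 77.3 TPM. The part of these cells in the results below was not tested, and in bulk RNA fewer cells of a type and less RNA per cell cannot be told apart.

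The factors recognize short DNA letters, and the sequence before the start of a gene shows which of them lie there. RefSeq gave a window of 250 bases before the start, on GRCm38.p6, for Snai1, Twist1, Twist2, Zeb2 and Prrx1, and windows of Snai2, Zeb1, Grhl2, Ovol1 and Klf5 were not analysed here. The windows below are shown because Twist1 and Prrx1 are the factors with the lowest adjusted p between the arms, in opposite directions, and Snai1 is the one that holds the letters CACCTG. Snai1 (chr2:167537945-167538194, plus strand), Twist1 (chr12:33957421-33957670, plus strand) and Prrx1 (chr1:163313711-163313900, minus strand, without the 60 bases that the GENCODE annotation places inside the gene) read as follows, 5′ to 3′, with CACCTG in capitals.
Snai1: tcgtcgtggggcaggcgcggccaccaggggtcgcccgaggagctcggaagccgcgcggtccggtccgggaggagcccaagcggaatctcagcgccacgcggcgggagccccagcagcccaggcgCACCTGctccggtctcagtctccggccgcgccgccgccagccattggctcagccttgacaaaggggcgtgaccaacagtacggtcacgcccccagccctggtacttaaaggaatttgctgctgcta
Twist1: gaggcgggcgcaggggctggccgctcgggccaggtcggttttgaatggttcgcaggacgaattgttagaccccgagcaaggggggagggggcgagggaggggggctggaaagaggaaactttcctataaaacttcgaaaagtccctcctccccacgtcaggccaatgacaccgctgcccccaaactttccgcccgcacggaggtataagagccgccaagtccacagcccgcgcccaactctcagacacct
Prrx1: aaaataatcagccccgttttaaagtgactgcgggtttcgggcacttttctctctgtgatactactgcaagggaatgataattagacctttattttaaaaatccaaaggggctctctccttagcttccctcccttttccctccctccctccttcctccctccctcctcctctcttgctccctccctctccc

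The Snai1 window held CACCTG, the E-box read by Snail and Zeb factors, once, at position -126 from the start. On either strand, these letters were found in 17.2% of 32817 promoter windows of the same length. The wider E-box CANNTG, which includes CACCTG and is read by Twist and its partners, was found in 66.2% of windows and in no window of Twist1, Twist2 or Prrx1. The forkhead letters GTAAACA were in 3.16% of all windows and in none of the single windows of Snai1, Twist1, Twist2 and Prrx1. Zeb2 has 4 windows, also without these letters, of which 2 overlap each other. By the GENCODE annotation, 2 of them hold 0 bases before the first exon base and 1 holds 21, so these are not windows outside the transcript. The Twist1 window held TATAAA (12.4% of windows) at position -126 and CCAAT (33.8% of windows) at position -89. These matches describe the letters of the windows only.

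**Figure D1:**
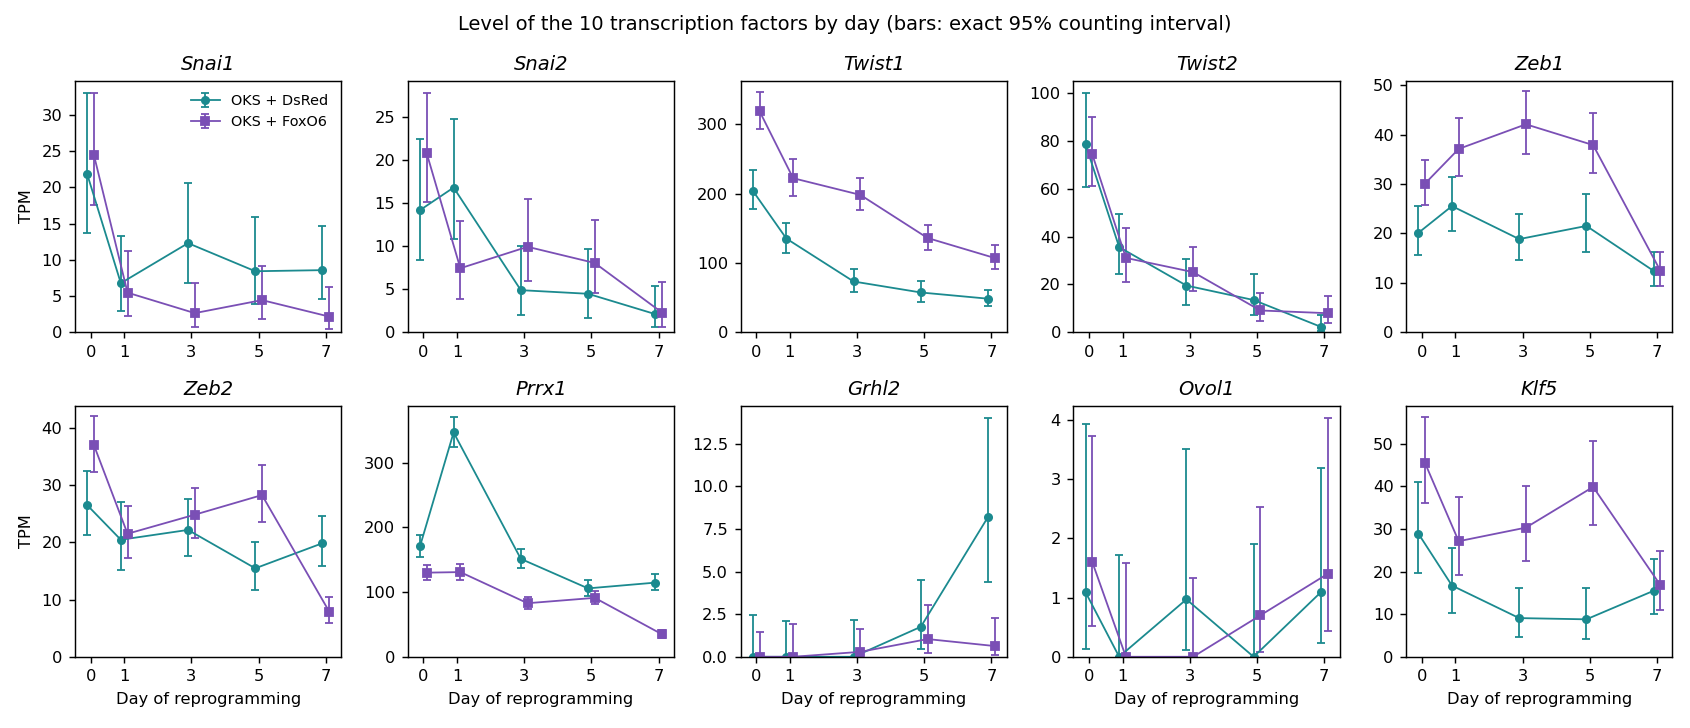
TPM of the 10 transcription factors (one panel each, linear axis from 0) by day of reprogramming in OKS + DsRed (circles) and OKS + FoxO6 (squares), 1 library per point, with bars for the exact 95% interval of the read count. Twist1 lies higher in OKS + FoxO6 on all days and Prrx1 lower, while Twist2 falls in both arms and Grhl2 reaches 8.21 TPM in OKS + DsRed at day 7.

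How the mesenchymal program moved during reprogramming was the first question. Most mesenchymal factors tested fell over the days, and Twist1 and Prrx1 remained the most abundant of the 10 in all libraries. The course shared by the arms was tested with edgeR's quasi-likelihood test on the rounded expected counts, as a linear slope over the day with the arm as a term, across 11028 genes. Of the 10 factors, 8 passed the filter on low counts, and Grhl2 and Ovol1 did not. Without the filter, Grhl2 was the 1 factor called as rising, at 0.83 ± 0.20 log2 per day (SE, edgeR adjusted p = 0.00676) from at most 13 reads in a library. Falling slopes passed the threshold (adjusted p under 0.05) for Snai2, Twist1, Twist2, Zeb1 and Prrx1, 5 of the 8, where 10.1% of all genes tested fell. All 8 slopes were below 0, as were 48.4% of those of all genes tested. The median slope of all genes tested was 0.00 log2 per day. The test takes the days of 2 time courses as its spread and does not measure the spread between independent infections.

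Twist2, a basic helix-loop-helix factor of dermal mesenchyme on chromosome 1 (91801461 to 91848028, plus strand, GENCODE M21 on GRCm38), fell most steeply. Its TPM at days 0, 1, 3, 5 and 7 was 78.5, 35.6, 19.5, 13.4 and 2.23 in OKS + DsRed. In OKS + FoxO6 it was 74.4, 31.1, 25.1, 9.07 and 7.93. The arms ran side by side and both were lowest at day 7. The slope was -0.53 ± 0.06 log2 per day (SE, adjusted p = 0.000199). From day 0 to day 7, the counts scaled to library size (CPM) dropped 35.2-fold in OKS + DsRed, to 0.0284 of the start with an exact 95% counting interval of 0.00572 to 0.0869, and 8.49-fold in OKS + FoxO6, to 0.118 (0.0524 to 0.232). The day 7 values rest on 3 and 9 reads.

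Snai2 (Slug), a zinc finger repressor on chromosome 16 (14705852 to 14709385, plus strand), came next. TPM was 14.15, 16.8, 4.87, 4.45 and 2.09 in OKS + DsRed and 20.75, 7.41, 9.90, 8.02 and 2.27 in OKS + FoxO6. The control level was low from day 3 on and the FoxO6 level from day 1 on, and both ended at 4 reads. The slope was -0.37 ± 0.07 log2 per day (SE, adjusted p = 0.00323).

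Snai1 (Snail), its paralog on chromosome 2 (167538195 to 167542814, plus strand), was highest at day 0 in both arms. Its TPM was 21.8, 6.77, 12.3, 8.42 and 8.57 in OKS + DsRed and 24.5, 5.46, 2.63, 4.43 and 2.15 in OKS + FoxO6. The levels of OKS + FoxO6 from day 3 on were below every level of OKS + DsRed. The slope was -0.28 ± 0.10 log2 per day (SE, adjusted p = 0.0571) and missed the threshold, with adjusted p of 0.0112 to 0.160 over 8 alternative fits, 4 of them past it.

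Twist1, the basic helix-loop-helix factor of neural crest and limb mesenchyme, lies on chromosome 12 (33957671 to 33959829, plus strand). It stood at a TPM of 204, 135, 73.1, 57.3 and 48.3 in OKS + DsRed. With FoxO6 the TPM was 319, 222, 198, 136 and 107. Both arms fell at every step, and each OKS + FoxO6 level lay above the control level of the same day. The slope was -0.25 ± 0.04 log2 per day (SE, adjusted p = 0.000642). Day 7 stood at 0.219 of day 0 in CPM (0.166 to 0.288) in OKS + DsRed and at 0.379 (0.314 to 0.455) in OKS + FoxO6.

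Prrx1, on chromosome 1 (163245119 to 163313710, minus strand), peaked after the start in the control. The TPM was 171, 347, 151, 106 and 115 in OKS + DsRed and 130.1, 131, 82.85, 91.2 and 34.8 in OKS + FoxO6. The rise to day 1 in OKS + DsRed had no counterpart in OKS + FoxO6, whose levels at days 0 and 1 were near each other. By CPM, which leaves out the transcript length, this rise was 1.47-fold (1.30 to 1.65), against 1.04-fold (0.912 to 1.18) in OKS + FoxO6. The mean length RSEM set in OKS + DsRed was 3949 nucleotides at day 0 and 3245 at day 1. The slope was -0.21 ± 0.03 log2 per day (SE, adjusted p = 0.000619).

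Zeb1 and Zeb2, zinc finger and homeodomain repressors, had shallower slopes. Zeb1 lies on chromosome 18 (5591860 to 5775467, plus strand), and its TPM was 20.1, 25.5, 18.85, 21.5 and 12.4 in the control and 30.1, 37.1, 42.1, 37.9 and 12.45 with FoxO6. It stayed near or above its day 0 level through day 5 and was lowest at day 7 in both arms. The slope of -0.15 ± 0.03 log2 per day (SE, adjusted p = 0.0106) rested on that last day, since without day 7 it was -0.08 and missed the threshold, and without day 1 it was -0.14 and also missed it. Zeb2 lies on chromosome 2 (44983632 to 45117395, minus strand), and its TPM was 26.5, 20.45, 22.2, 15.5 and 19.85 in the control and 37.0, 21.5, 24.8, 28.3 and 7.90 with FoxO6. By TPM the day 7 library of OKS + FoxO6 was the lowest of all 10. By CPM, which leaves out the transcript length, day 7 stood at 0.576 (0.423 to 0.782) of day 0 in OKS + DsRed and at 0.294 (0.212 to 0.402) in OKS + FoxO6. Its slope of -0.12 ± 0.05 log2 per day (SE, adjusted p = 0.0966) missed the threshold.

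The epithelial factors differed among themselves. Grhl2 (grainyhead-like 2), on chromosome 15 (37233036 to 37363569, plus strand), was listed at 0 on days 0, 1 and 3 in OKS + DsRed and then at a TPM of 1.76 and 8.21. In OKS + FoxO6 the TPM was 0, 0, 0.29, 1.04 and 0.63. The reads behind these values numbered 4 and 13 on the last days of the control and 1, 3 and 2 from day 3 on in OKS + FoxO6. Against a floor of 3 reads at day 0, Grhl2 was at least 2.67-fold higher at day 7 in OKS + DsRed, and both libraries were under the floor in OKS + FoxO6.

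Ovol1, a zinc finger factor of epidermis on chromosome 19 (5549136 to 5560646, minus strand), was near the limit of detection. Its TPM was 1.09, 0, 0.97, 0 and 1.09 in OKS + DsRed and 1.60, 0, 0, 0.70 and 1.40 in OKS + FoxO6, none from more than 5 reads. No change could be detected at this depth in either arm.

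Klf5, on chromosome 14 (99298691 to 99315036, plus strand), was already present at day 0. The TPM was 28.9, 16.7, 9.08, 8.79 and 15.5 in OKS + DsRed, against 45.4, 27.1, 30.3, 39.9 and 16.8 in OKS + FoxO6. The control was lowest at days 3 and 5, when OKS + FoxO6 stood at 30.3 and 39.9. The slope of -0.12 ± 0.06 log2 per day (SE, adjusted p = 0.191) missed the threshold. Day 7 stood at 0.497 of day 0 in CPM (0.281 to 0.870) in OKS + DsRed and at 0.418 (0.256 to 0.660) in OKS + FoxO6.

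From day 0 to day 7, by the difference in log2(TPM + 1), 4 of the 10 factors were lower by over 2-fold in OKS + DsRed (Snai1, Snai2, Twist1 and Twist2) and 8 in OKS + FoxO6 (all but Grhl2 and Ovol1). In CPM, which uses no transcript length, Prrx1 (2.08-fold) and Klf5 (2.01-fold) were past it as well in OKS + DsRed and Zeb1 was at 1.98-fold, so the count there was 6 against 8. Among the 15011 genes that averaged a TPM of 1 or more, 11.4% were lower in OKS + DsRed and 17% in OKS + FoxO6. Over 2-fold higher were 1 factor, Grhl2, in OKS + DsRed and 0 in OKS + FoxO6, against 21% and 14.4% of these genes. The pseudocount of 1 understates changes of low genes, and a comparison of 2 single libraries has no replicate check. The arms share no library here, and whether the slope itself differed between them was tested separately.

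**Figure D2:**
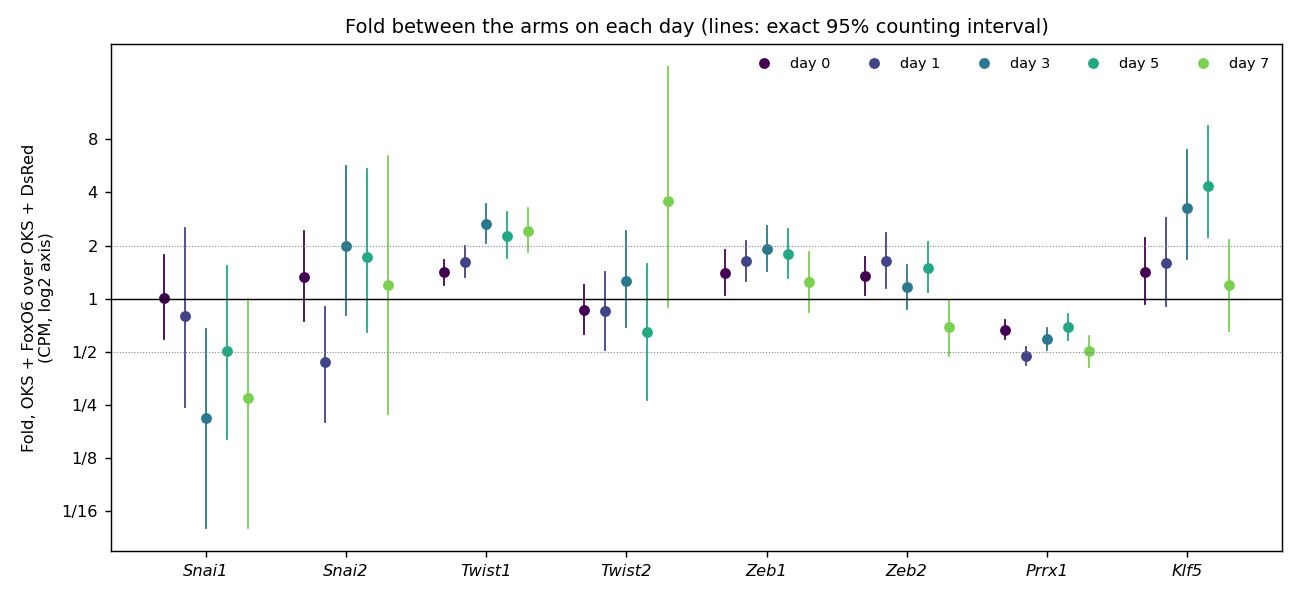
CPM fold of OKS + FoxO6 over OKS + DsRed (log2 axis) on each of 5 days for the 8 factors with reads in all libraries, with lines for the exact 95% counting interval and dotted lines at 2-fold. Twist1 lies above 1 and Prrx1 below 1 on all days with intervals that exclude 1, and Klf5 stands apart at days 3 and 5.

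Which factors differed between the arms was the second question, asked as a shift of OKS + FoxO6 against OKS + DsRed shared by the 5 days. Twist1, Zeb1 and Klf5 were higher with FoxO6 and Prrx1 was lower, so the mesenchymal factors did not move in one direction. The test was edgeR's quasi-likelihood test with the day as a factor and 4 residual degrees of freedom, over the same 11028 genes. Of the 8 factors tested, 3 were higher (6.86% of all genes tested) and 1 was lower (7.09%). The median shift of all genes tested was -0.02 log2.

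Twist1 was higher by 0.99 ± 0.16 log2 (SE, adjusted p = 0.00233). Its CPM fold was 1.41 (95% counting interval 1.20 to 1.67) at day 0, 1.62 (1.33 to 1.98) at day 1, 2.66 (2.08 to 3.44) at day 3, 2.28 (1.71 to 3.08) at day 5 and 2.44 (1.83 to 3.27) at day 7. All 5 days pointed the same way, and the fold was lower on days 0 and 1 than later. The call held in 8 of 9 alternative fits, all but the one with no term for the day.

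Prrx1 was lower by a shift of -0.78 ± 0.12 log2 (SE, adjusted p = 0.00212), also on 5 of 5 days. In CPM it stood at 0.670 (0.589 to 0.762) of the control at day 0, 0.473 (0.421 to 0.532) at day 1, 0.593 (0.513 to 0.685) at day 3, 0.691 (0.586 to 0.816) at day 5 and 0.506 (0.413 to 0.617) at day 7. At day 7 the TPM gave a larger difference, -1.69 on the log2(TPM + 1) scale, than the CPM, -0.97. RSEM set a mean transcript length of 3064 to 4617 nucleotides for Prrx1 in different libraries, and the length enters the TPM and not the CPM. The call held in 8 of 9 alternative fits, all but the one with no term for the day.

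Zeb1 was higher by 0.67 ± 0.14 log2 (SE, adjusted p = 0.0110). Its CPM fold was 1.40 (1.05 to 1.88), 1.63 (1.25 to 2.14), 1.92 (1.44 to 2.59) and 1.79 (1.31 to 2.47) at days 0, 1, 3 and 5, and 1.24 (0.836 to 1.83) at day 7. By CPM the arms were apart through day 5 and within counting error at day 7. At day 0 the difference was 0.56 in log2(TPM + 1) and 0.29 with the trend on transcript length removed. Without day 3 or without day 5 the shift was 0.60 or 0.63 and missed the threshold, with adjusted p of 0.00109 to 0.249 over 9 alternative fits.

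Klf5 was higher by 0.98 ± 0.28 log2 (SE, adjusted p = 0.0409). At days 0 and 1 the CPM folds of 1.42 (0.929 to 2.22) and 1.60 (0.912 to 2.87) lay within counting error. They were 3.28 (1.68 to 7.0) at day 3 and 4.35 (2.23 to 9.49) at day 5, and 1.19 (0.658 to 2.17) at day 7. An epithelial factor was higher with FoxO6 in the middle of the time course, from 49 and 67 reads against 11 and 10. The call was lost without day 1 (1.07), day 3 (0.84) or day 5 (0.75), and the adjusted p ran from 0.000804 to 0.238 over 9 alternative fits.

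The other factors tested did not pass. Snai1 had a shift of -0.86 ± 0.39 log2 (SE, adjusted p = 0.181). At day 3 its CPM was 0.210 of the control (0.0504 to 0.670), from 4 reads against 14, and at day 7 0.275 (0.0503 to 1.00), from 3 against 13. Snai2 had a shift of 0.18 ± 0.37 log2 (SE, adjusted p = 0.801), and only its day 1 fold of 0.436 (0.199 to 0.900) had an interval without 1. Twist2 had a shift of 0.01 ± 0.26 log2 (SE, adjusted p = 0.988). The standard errors of Snai1, Snai2 and Twist2, counted from few reads, were over 2 times that of Prrx1.

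Zeb2 had a shift of 0.29 ± 0.18 log2 (SE, adjusted p = 0.337), with opposite signs across the days. Its CPM fold was 1.35 (1.05 to 1.73), 1.63 (1.14 to 2.36), 1.17 (0.879 to 1.56) and 1.50 (1.09 to 2.09) at days 0, 1, 3 and 5, and 0.688 (0.474 to 0.989) at day 7. By CPM, OKS + FoxO6 was above the control before day 7 and below it at day 7. In log2(TPM + 1) the difference was 0.47 at day 0 and 0.07 at day 1. With the trend on transcript length removed it was 0.16 at day 0. Without day 7 the shift was 0.47 and passed the threshold. The day 7 difference was -1.23 in log2(TPM + 1), -0.52 in CPM and -0.78 with the trend on transcript length removed, and RSEM set a mean length of 3292 to 6988 nucleotides for Zeb2.

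On single days, the factors were counted by a difference in log2(TPM + 1) of over 2-fold, beside the share of all genes past it. At days 1 and 5 the count of factors was near that share. At day 0, 0 of 10 passed, where 10.6% of genes were higher and 6.41% lower. At day 1, Snai2 and Prrx1 were lower, 2 of 10, against 9.43% of genes lower and 8.1% higher. At day 3, Twist1, Zeb1 and Klf5 were higher (8.21% of genes) and Snai1 lower (11.8%). By CPM on the log2 scale Zeb1 was short of 2-fold there, at 0.92, and Ovol1 was past it, at -1.10. At day 5, Twist1 and Klf5 were higher (10.3%) and 0 lower (11.4%). At day 7, Twist1 and Twist2 were higher (8.3%) and Snai1, Zeb2, Prrx1 and Grhl2 lower (16.5%). For Grhl2 at day 7 the 2 reads of OKS + FoxO6 against 13 gave a CPM ratio of 0.184 (0.0201 to 0.811), and for Twist2 the 9 against 3 gave 3.58 (0.893 to 20.6), an interval that holds 1, as does that of Snai1 at day 7. In CPM, Zeb2 (0.688) and Prrx1 (0.506) at day 7 were short of 2-fold, which leaves 2 factors lower. With a pseudocount of 0.1 in place of 1, 7 of 10 passed at day 3 in place of 4, the added ones being Snai2, Grhl2 and Ovol1.

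Whether the slope over the days differed between the arms was tested with an interaction of arm and day. No factor passed, 0 of 8, where 1.96% of all genes tested did. By edgeR's test, the difference in slope was largest in size for Snai1, at -0.26 ± 0.14 log2 per day (SE, adjusted p = 0.349). It was 0.12 ± 0.05 (SE, adjusted p = 0.201) for Twist1, -0.11 ± 0.06 (SE, adjusted p = 0.327) for Zeb2 and 0.14 ± 0.11 (SE, adjusted p = 0.541) for Twist2. For Snai2 it was 0.13, for Klf5 0.05, and for Zeb1 and Prrx1 -0.01 each. Several of these values moved without day 7, when the difference was 0.35 ± 0.12 (SE, adjusted p = 0.324) for Klf5, 0.07 for Zeb1 and -0.00 for Zeb2, with adjusted p for Klf5 of 0.324 to 1 over 9 alternative fits. DESeq2 also called 0, and Twist1 was the 1 factor with an unadjusted p under 0.05 in the edgeR fit. The test had 3 residual degrees of freedom, and a missed call does not show equal slopes.

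**Figure D3:**
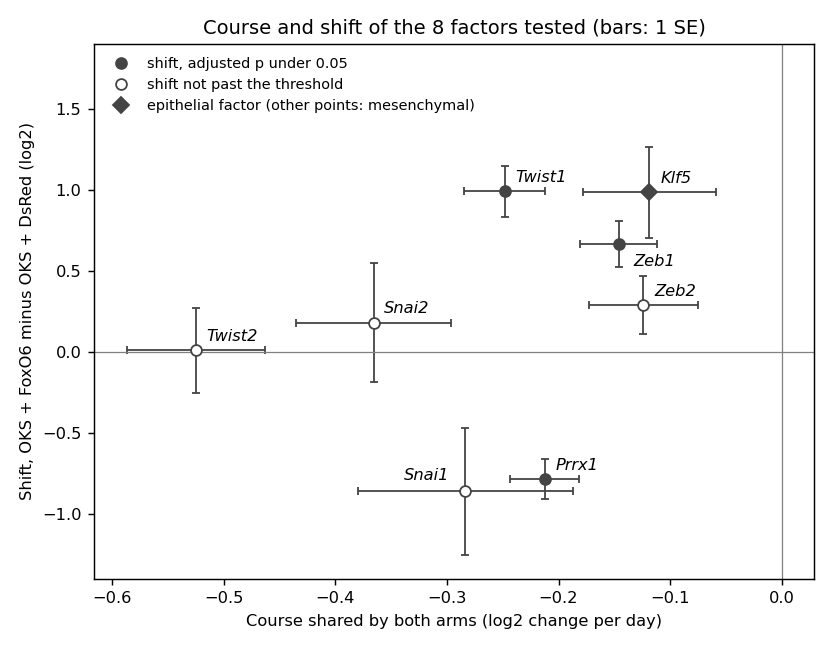
Shift between the arms (OKS + FoxO6 minus OKS + DsRed, log2, vertical axis) against the course shared by the arms (log2 change per day, horizontal axis) for the 8 factors tested, with bars of 1 SE and filled points where the shift had an adjusted p under 0.05. All 8 lie left of 0 on the course, from -0.53 for Twist2 to -0.12 for Klf5, while the shift runs from -0.86 for Snai1 to 0.99 for Twist1.

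Which factor dominated the mesenchymal set differed between the arms. The summed TPM of the 7 mesenchymal factors was 536, 587, 302, 226 and 208 in OKS + DsRed and 636, 456, 386, 315 and 175 in OKS + FoxO6. Both sums were lower at day 7 than at day 0, and neither arm was the higher on all days. Twist1 made up 38.1% of the sum at day 0 and 23.0% to 25.3% later in OKS + DsRed, against 43.2% to 61.3% in OKS + FoxO6. Prrx1 made up 31.9% at day 0 and 46.7% to 59.1% later in the control, against 19.9% to 29.0% with FoxO6.

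The ratio of Twist1 to Prrx1 within a library, chosen after the values were seen, describes the contrast and was not tested. It was 1.19, 0.389, 0.483, 0.541 and 0.421 in OKS + DsRed and 2.45, 1.70, 2.39, 1.49 and 3.07 in OKS + FoxO6. The lowest ratio with FoxO6 was above the highest without it, but their counting intervals, 1.25 to 1.78 and 1.01 to 1.41, met. The ratios also rest on the length RSEM set for Prrx1, which a counting interval does not cover. At day 7 its effective length was 4556 bases with FoxO6 against 3001 in the control. The order of Twist1 and Prrx1 by TPM followed: in OKS + FoxO6, Twist1 led on all 5 days with counting intervals apart from those of Prrx1. In OKS + DsRed, Prrx1 led from day 1 on, and at day 0 the 2 intervals met. Below them, most neighbours in the order of levels had intervals that met.

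Among paralogs, the TPM ratio of Twist1 to Twist2 was 2.60, 3.80, 3.75, 4.26 and 21.7 in OKS + DsRed and 4.29, 7.16, 7.89, 15.0 and 13.5 in OKS + FoxO6. It was larger at day 7 than at day 0 in both arms, and the day 7 interval of the control, 7.12 to 107, was wide. The ratio of Zeb2 to Zeb1 was 1.32, 0.801, 1.18, 0.718 and 1.60 in OKS + DsRed and 1.23, 0.579, 0.590, 0.746 and 0.635 in OKS + FoxO6. At day 7 the intervals, 1.12 to 2.29 and 0.423 to 0.948, lay on either side of 1. The latter rests on the lengths RSEM set, since Zeb2 had 49 reads and Zeb1 56 in that library, and the effective length of Zeb2 was 6927 bases there against 4401 in the control, which a counting interval does not cover. The ratio of Snai2 to Snai1 was 0.648, 2.48, 0.396, 0.529 and 0.244 in OKS + DsRed and 0.848, 1.36, 3.76, 1.81 and 1.06 in OKS + FoxO6. Of these 10 ratios, 3 had a counting interval without 1, those of OKS + DsRed at day 1 (1.08 to 6.35) and day 7 (0.0579 to 0.789) and that of OKS + FoxO6 at day 3 (1.25 to 15.2). In the other 7 libraries the order of the 2 paralogs was not resolved.

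**Figure D4:**
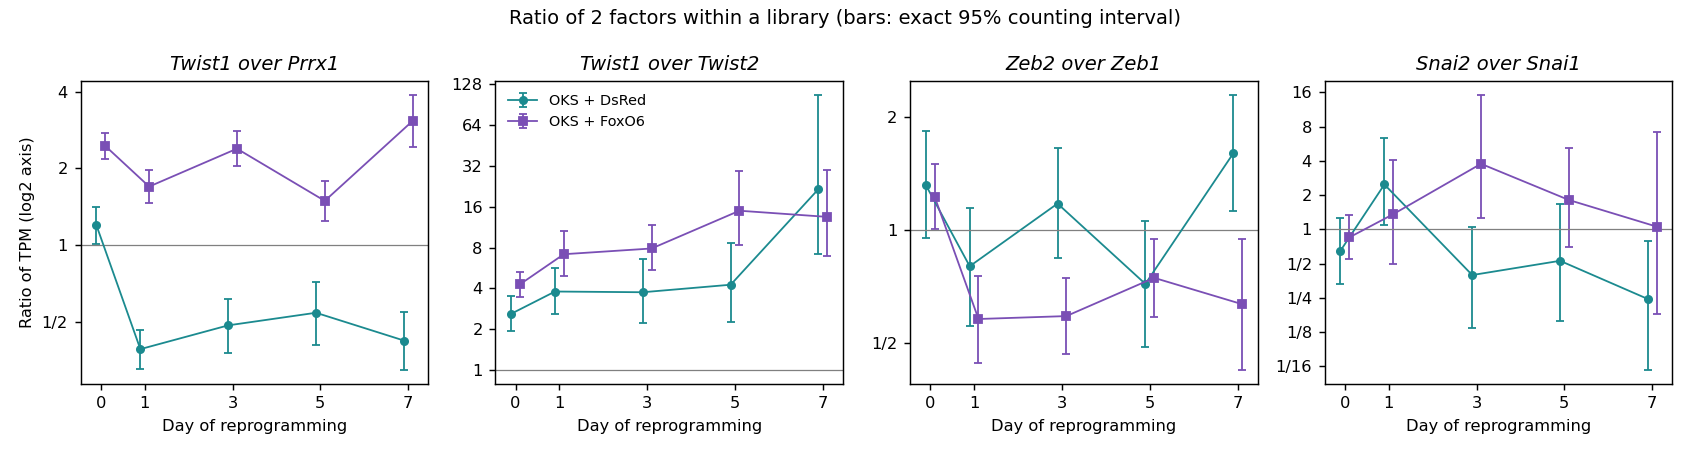
Ratio of the TPM of 2 factors within a library (log2 axis) by day in OKS + DsRed (circles) and OKS + FoxO6 (squares), with bars for the exact 95% counting interval. Twist1 over Prrx1 stays between 1.49 and 3.07 in OKS + FoxO6 and is below 1 from day 1 on in OKS + DsRed.

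Summed over Grhl2, Ovol1 and Klf5, the epithelial TPM was 30.0, 16.7, 10.05, 10.55 and 24.8 in OKS + DsRed and 47.0, 27.1, 30.6, 41.6 and 18.85 in OKS + FoxO6. Klf5 held most of it in all libraries. The control was the lower arm through day 5 and the higher one at day 7, where Grhl2 added 8.21 TPM.

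Over the 10 libraries, the levels of some factors ran together, given here as a description because the libraries form 2 time courses. Pearson's r of log2(TPM + 1) was 0.88 between Snai2 and Twist2, 0.84 between Twist1 and Klf5, and 0.79 between Twist1 and Snai2 and between Twist1 and Twist2. It was 0.12 between Twist1 and Prrx1 and -0.85 between Twist2 and Grhl2. Among the 11490 genes that averaged a TPM of 5 or more, the one most like Twist1 was Hsd17b7 (r = 0.97), followed by Serpinb6a and Asah1. The nearest to Prrx1 were Ccne2 (r = 0.98), Zc3hav1l and Nedd9. For Twist2 they were Filip1l (r = 0.98), Tm4sf1 and Wisp1, and for Snai2 Arf1 (r = 0.99), Tll1 and Fbn1. Snai1 was nearest to Fhl1 (r = 0.95), Cd248 and Sdc1, and Zeb1 to Bach1 (r = 0.98), Hipk3 and Prdm4. Zeb2 was nearest to Tasp1 (r = 0.95), the Y-linked Ddx3y and Alg10b, and Klf5 to Ndel1 (r = 0.92), Pold4 and P2rx4.

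**Figure D5:**
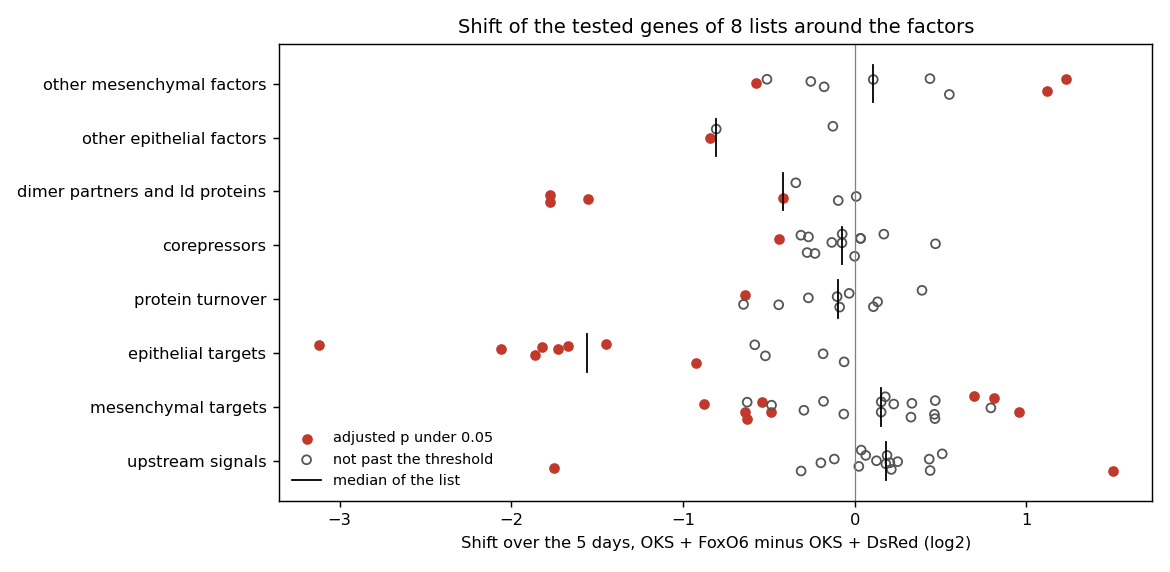
Shift over the 5 days (OKS + FoxO6 minus OKS + DsRed, log2) of the tested genes of 8 lists around the factors, 1 point per gene, filled red where the adjusted p was under 0.05, with the median of each list as a black line. The epithelial targets lie lowest, with a median of -1.56, and Id1, Id2 and Id3 form the group at the left of the dimer partners.

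The factors work with partners and on targets, and these were described from lists. For each count below, the shares over all genes tested were 6.86% higher and 7.09% lower with FoxO6, and 9.9% rising and 10.1% falling over the days. Twist proteins bind DNA as dimers with E proteins, and the Id proteins take E proteins away from such dimers. Of 7 genes of this group, all tested, 4 were lower with FoxO6, with a median shift of -0.42. Id2 had a TPM of 89.6 to 132 without FoxO6 and of 15.1 to 44.1 with it, a shift of -1.78 ± 0.18 log2 (SE, edgeR adjusted p = 0.000177). Id1, at 34.8 to 85.7 against 10.6 to 26.2 TPM, had a shift of -1.77 ± 0.24 (SE, adjusted p = 0.00102). The ranges of the arms did not overlap for Id1 and Id2. Both were named for a low p of the shift, and the share of all genes without overlap was not counted. Id3 had a shift of -1.55 ± 0.30 (SE, adjusted p = 0.00663), and the E protein Tcf3 one of -0.42 ± 0.11 (SE, adjusted p = 0.0330). The slopes of Tcf4 and Tcf12, both E proteins, differed between the arms, with values on opposite sides at the ends of the time course and closer to each other between. At day 0 their TPM was 103 and 188 with FoxO6 against 34.85 and 78.8 without it, and at day 7 it was 31.8 and 54.4 against 137 and 203. At days 1, 3 and 5, Tcf4 had 108, 113 and 123 with FoxO6 against 91.65, 129 and 120 without it. For Tcf12 these were 214, 219 and 169 against 235, 158 and 161.

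Other mesenchymal factors were mixed too. Of 23, 9 were tested, with a median of 0.11. Sox4 was higher by 1.23 ± 0.17 log2 (SE, edgeR adjusted p = 0.00113), while Foxc1 had a shift of -0.58 ± 0.17 (SE, adjusted p = 0.0420). Over the days, 2 of the 9 fell, Runx2 and Fosl1. Of 18 other epithelial factors, 3 were tested, and all 3 rose over the days (Tfap2a, Ehf and Grhl1). Tfap2a, an AP-2 factor of surface ectoderm, was lower with FoxO6 by a shift of -0.84 ± 0.22 log2 (SE, edgeR adjusted p = 0.0310), and the shifts of Grhl1 and Ehf, -0.81 and -0.13, missed the threshold.

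Most of the epithelial targets tested were lower with FoxO6. Of 31, 12 were tested, 8 were lower, with a median shift of -1.56, and 8 rose over the days. Cdh1 had a TPM of 3.90, 12.15, 36.7, 106 and 201 in OKS + DsRed, and one of 0.58, 3.35, 2.55, 14.0 and 28.9 with FoxO6. The control was higher on each day, and the shift was -3.12 ± 0.22 log2 (SE, edgeR adjusted p = 4.15e-05). Krt8, a keratin of simple epithelia, had a shift of -2.06 ± 0.24 (SE, adjusted p = 0.000409), the membrane protease gene St14 one of -1.73 ± 0.24 (SE, adjusted p = 0.00124) and Krt19 one of -1.67 ± 0.26 (SE, adjusted p = 0.00232).

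Most mesenchymal targets fell over the days. Of 24, 23 were tested and 20 fell, with a median slope of -0.36 log2 per day. Between the arms, 5 were lower, 3 higher, and the median shift was 0.15. Sparc, a matrix glycoprotein, had a shift of -0.88 ± 0.14 log2 (SE, edgeR adjusted p = 0.00268), and Cd44, Col3a1 and Cdh11 had shifts of -0.54, -0.64 and -0.63, also past the threshold. Higher with FoxO6 were Postn, Pdgfra and Mmp2. The slopes of Col1a2 and Mmp2 differed between the arms, and at day 7 their TPM was 262 and 41.8 in the control against 758 and 151 with FoxO6.

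Upstream signals, corepressors and genes of protein turnover were counted in the same way. Of 20 genes of the TGF-beta, BMP, Notch and hypoxia signals, 17 were tested, 1 was higher and 1 lower, with a median shift of 0.18. Over the days, 5 of the 17 fell (Smad7, Tgfb1, Hif1a, Bmp4 and Notch2) and 1 rose (Tgfb2), and the slope of Notch1 differed between the arms. Tgfbr2, the type II receptor of TGF-beta, an inducer of several of the factors, had a TPM of 71.9 to 112 without FoxO6 and of 181 to 359 with it. The shift was 1.50 ± 0.15 log2 (SE, edgeR adjusted p = 0.000177). Notch1 had a shift of -1.75 ± 0.28 (SE, adjusted p = 0.00246). Of 13 corepressors, all tested, 1 was lower (Hdac1, -0.44), with a median of -0.07. Of 10 genes of protein turnover, all tested, 1 was lower (the kinase gene Pak1, -0.64), with a median of -0.09.

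Marker genes of other cell types also moved with the arm. Of the 10 fibroblast markers, all but Dcn also among the mesenchymal targets, 9 fell over the days, and between the arms 2 were higher with FoxO6 (Dcn and Pdgfra) and 1 lower (Col3a1). Of 4 markers of neurons and glia tested, 3 were lower with FoxO6 (Tubb3, Nes and Stmn2, with shifts of -2.59, -1.53 and -1.15). Of 3 endothelial markers tested, 2 were higher (Tek and Kdr, with shifts of 0.95 and 2.19). The slopes of Dcn, Col1a2 and Kdr differed between the arms. One macrophage, 1 keratinocyte and 1 pluripotent cell marker were tested, and their shifts did not pass, while 0 muscle markers were tested. The pluripotent marker, Tfcp2l1, rose over the days by 0.67 ± 0.14 log2 per day (SE, edgeR adjusted p = 0.00532). The 10 pluripotent markers summed to 349 TPM in OKS + DsRed and 77.3 TPM in OKS + FoxO6 at day 7. Several factors are known to be expressed in these cell types as well, and the part of such cells in the shifts of Twist1, Zeb1, Prrx1 and Klf5 was not tested.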

How the data were processed

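Bulk RNA-seq was measured in 10 libraries, grouped by their labels into OKS + DsRed and OKS + FoxO6 at 5 days. The authors used Bowtie2 within RSEM, on the GENCODE M13 transcriptome of the mouse (mm10 in the submitters' processing notes). They deposited expected counts, which are estimates and not normalized. TPM values, also deposited, are RSEM's own. The labels name a VAHTS mRNA-seq kit and the methods a TruSeq kit. Whether counting used strand is not given in the sources used here. Reads of Twist2, Zeb1, Zeb2, Ovol1 and Grhl2 therefore cannot be told apart from antisense or opposite-strand genes that overlap their exons. Those genes with counts held at most 15.7 expected counts in a library. An antisense gene that overlaps exons of Ovol1 had no counts in the data, so its part is unknown. Genes were placed by GENCODE M21 (GRCm38), and promoter windows were taken from RefSeq (GRCm38.p6), where 5 of the 10 members have one that is used here.

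Members were matched by symbol. Expected counts were rounded and fitted with edgeR 4.0.16 in R 4.3.3 (TMM, filterByExpr, quasi-likelihood test, Benjamini-Hochberg adjustment over all genes tested, threshold 0.05), with DESeq2 1.42.0 as an alternative. On single days, differences in log2(TPM + 1) were used, with a threshold of 2-fold and no test. Intervals of 95% around CPM folds are exact (Clopper-Pearson) and, like the floor of 3 reads, cover counting error only, since reads without molecular identifiers are not independent molecules. The rest was computed with pandas 2.3.3, scipy 1.17.1 and matplotlib 3.10.9 under Python 3.11.15. On simulated data with 200 genes changed 4-fold, the shift recovered 195 with 5 false calls, the course 194 with 9 and the difference of the course 100 with 4, among 11205, 11230 and 11237 genes. The simulated libraries were independent, with no spread between cultures and less spread of counts than was fitted for the course. The changed genes were drawn from those with more reads, and 4-fold is more than the shift of any factor called. These numbers therefore do not give the error rate of the calls on the factors.

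The members and gene lists were chosen with earlier results of these data known. Named are the 10 members, at most 4 genes of a list by the lowest p of the shift, the 3 genes most like each member tested, and, chosen after their values were seen, genes that a count of 5 or fewer refers to, Foxo6, Acta1, Tcf4, Tcf12 and the ratio of Twist1 to Prrx1. Alternatives tried were CPM with TMM, a pseudocount of 0.1, removal of the trend on length, a minimum of 10 reads, other mean TPM limits, RLE size factors, no filter, no day term, log2(day + 1), each arm alone and each day left out. The list name Patj was matched as Inadl. One gene of a list is not reported here.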

Additional observations from a re-analysis of the deposited data

Results flagged for a closer look

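Among the factors, Zeb2 stood out because its difference between the arms by CPM had opposite signs on different days, with counting intervals that excluded 1. Its CPM fold of OKS + FoxO6 over OKS + DsRed was 1.35 at day 0, 1.63 at day 1 and 1.50 at day 5, but 0.688 at day 7. Each value compares 1 library with 1 library. The difference in slope between the arms, tested with edgeR, missed the threshold (adjusted p = 0.327), and the contrast of day 7 with the other days was not tested itself. The pattern was not particular to Zeb2. By TPM, Tcf4 and Tcf12 were also higher with FoxO6 at day 0 (103 against 34.85 and 188 against 78.8). Both were lower at day 7 (31.8 against 137 and 54.4 against 203). How many genes changed sign in this way was not counted. The cause was not tested.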

How the results depend on the processing

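Of the counts of factors past a threshold, 49 values under an alternative stayed within 1.5 times the value reported, and no factor changed direction in a result past its threshold. With a pseudocount of 0.1, the factors past 2-fold between the arms at day 3 numbered 7 in place of 4. For the shift between the arms, leaving out each day in turn gave 2 to 5 factors in place of 4 (2 without day 3, 2 without day 5, 3 without day 1, 4 without day 0 and 5 without day 7), and 0 without a term for the day, a fit that adds the change over the days to the spread. For the course, OKS + DsRed alone gave 2 of 5 factors tested and OKS + FoxO6 alone 3 of 6, in place of 5 of 8, from 5 libraries each. Over all genes, the shift called 1538, against 710 without day 3, 655 without day 5 and 169 without a day term. The course called 2205, against 1283 without day 5, 567 in OKS + DsRed alone and 765 in OKS + FoxO6 alone. The difference of the course called 216, against 127 with DESeq2, 648 without a filter, 112 without day 0, 134 without day 1, 76 without day 7 and 107 with log2(day + 1). For single factors, 382 values stayed on the same side of their threshold, 15 passed a threshold only under the alternative and 17 only in the value reported. Depth limits Grhl2, Ovol1, Snai1 and Snai2 most, and 1 library per arm and day leaves the spread between infections unmeasured.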
